A study of Mus musculus with 16 samples.

Results

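The HoxC genes are the 9 homeobox genes of the HoxC cluster (Hoxc4, Hoxc5, Hoxc6, Hoxc8, Hoxc9, Hoxc10, Hoxc11, Hoxc12 and Hoxc13). They were found by their mouse symbols among the 53379 genes counted in each library, and all 9 were present. Their reads were followed in RNA-seq libraries of single-color MADM-labeled cells from P4 (postnatal day 4) neocortex. MADM (mosaic analysis with double markers) recombines homologous chromosomes in dividing cells, so that rare cells become green and, where 1 chromosome carries a mutation, homozygous for it. The cassettes lay on chromosome 7, recombination was driven by Emx1-Cre, which is active in the progenitors of cortical projection neurons and astrocytes, and all animals carried the XGFAP-lacZ transgene. Green (GFP+) cells of control-MADM mice (MADM7-GT/TG;Emx1-cre;XGFAP-lacZ) were Eed+/+. Green cells of Eed-MADM mice, which had the same alleles and in addition an Eed-flox allele on chromosome 7 and were otherwise largely heterozygous for Eed, were Eed-/-. GFP+/lacZ+ cells were collected as astrocytes (Eed+/+, n = 5; Eed-/-, n = 5) and GFP+/lacZ- cells as neurons (Eed+/+, n = 2; Eed-/-, n = 3), from mice labeled as CD1 and, in the methods of the study, of a mixed C57BL/6, CD1 background and both sexes. The methods state individual animals as replicates for astrocyte sorting, and whether an astrocyte and a neuron library came from the same animal is not given. The neuron fraction was thus defined by absence of lacZ, and green cells of both genotypes carried 2 paternal copies of chromosome 7.

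Hox genes encode transcription factors that bind DNA through the homeodomain and give cells their position along the body axis. In vertebrates the genes of a cluster are expressed in the order in which they lie on the chromosome, from Hoxc4 in the neck region to Hoxc13 at the tail end, and the neocortex lies in front of all their domains. Polycomb repressive complex 2 (PRC2), of which Eed is a core subunit, places a repressive methyl mark on histone H3 and is known for silencing Hox clusters where they are not used.

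The cluster spans chr15:102921103-103036852 (mm10/GRCm38, plus strand, 115750 bp), with Hoxc13 at its start and Hoxc4 at its end. Between them follow Hoxc12, Hoxc11, Hoxc10, Hoxc9, Hoxc8 and Hoxc6. The annotated span of Hoxc5 (chr15:102967443-103017429) runs over Hoxc10, Hoxc9, Hoxc8 and Hoxc6, and 166 exon bases are shared by Hoxc5 and Hoxc10, where reads counted without strand cannot be assigned to either. Levels are given as CPM (reads per 1000000 gene reads of the library), and genes are compared with each other only as CPM per kb of exon not shared with another gene (1031 bases in Hoxc12 to 2923 in Hoxc5). The homeobox, which encodes the homeodomain, is shown for the 3 genes with the highest levels per kb in Eed-/- neurons (Hoxc9, Hoxc10 and Hoxc8) and for Hoxc4, which came after Hoxc8 and Hoxc9 in Eed-/- astrocytes. The sequences are the 180 coding bases in the GENCODE release 21 transcripts, and the capitals mark the 18 bases for the core of the DNA-contacting helix.
Hoxc9 (coding bases 574 to 753): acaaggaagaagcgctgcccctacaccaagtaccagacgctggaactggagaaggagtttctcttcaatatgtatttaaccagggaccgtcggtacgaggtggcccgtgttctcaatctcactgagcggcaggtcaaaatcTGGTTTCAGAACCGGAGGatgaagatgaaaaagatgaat
Hoxc10 (coding bases 802 to 981): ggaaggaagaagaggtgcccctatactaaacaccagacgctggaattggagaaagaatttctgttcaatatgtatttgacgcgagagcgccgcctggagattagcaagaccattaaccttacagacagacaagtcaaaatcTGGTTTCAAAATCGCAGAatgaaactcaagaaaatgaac
Hoxc8 (coding bases 445 to 624): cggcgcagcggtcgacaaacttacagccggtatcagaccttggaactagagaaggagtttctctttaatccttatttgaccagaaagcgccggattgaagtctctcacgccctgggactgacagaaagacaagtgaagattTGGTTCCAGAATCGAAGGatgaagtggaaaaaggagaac
Hoxc4 (coding bases 466 to 645): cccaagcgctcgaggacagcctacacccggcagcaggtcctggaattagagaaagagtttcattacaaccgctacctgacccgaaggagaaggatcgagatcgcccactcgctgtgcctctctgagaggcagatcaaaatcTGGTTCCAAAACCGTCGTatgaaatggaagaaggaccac
The homeoboxes of Hoxc9 and Hoxc10 were identical at 71.7% of bases, those of Hoxc8 and Hoxc9 at 64.4%, and those of Hoxc4 and Hoxc8 at 63.9%. Over whole transcripts, the longest identical stretch shared with any other Hox gene was between 18 bases (Hoxc12) and 50 bases (Hoxc9, shared with Hoxb9), leaving aside the pair of Hoxc5 and Hoxc10. The sources used here do not give the read length, and reads that aligned to more than 1 place did not enter the counts.

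Depth and alignment differed between libraries. Gene reads per labeled library ranged from 211736 to 3178529 and uniquely aligned reads from 26.1% to 76.6%. Of the 15 labeled libraries, 10 were within the alignment limits used here (at least 60% and at least 1000000 uniquely aligned reads). The study left some libraries of this series out of its own analysis without naming them, whereas all 15 were kept here. Outside the limits lay Eed+/+ astrocyte replicate 3, Eed-/- astrocyte replicates 1, 3 and 4, and Eed+/+ neuron replicate 2. Eed itself (chromosome 7), counted over the whole gene and not over the deleted part alone, had 88, 204, 2, 85 and 41 reads in Eed+/+ astrocytes and 0, 26, 0, 0 and 14 in Eed-/- astrocytes. It had 121 and 26 reads in Eed+/+ neurons and 21, 74 and 53 in Eed-/- neurons, and neither difference passed the test (edgeR log2 fold change -2.55 ± 1.80 SE, adjusted p 0.799 in astrocytes, and -1.30 ± 0.74, 0.752 in neurons). Summed over 10 neuron markers, the neuron libraries had 710 to 1956 CPM and the astrocyte libraries 5.22 to 2941 CPM, so that this list did not set the GFP+/lacZ- fraction apart. The 10 astrocyte markers summed to 8444 to 13202 CPM in neuron and to 2600 to 30727 CPM in astrocyte libraries. The 7 oligodendrocyte lineage markers summed to 1257 to 3890 CPM in neuron libraries, above the neuron marker sum in each of them, and to 209 to 4703 CPM in astrocyte libraries. The 7 interneuron markers summed to 538 to 781 CPM in neuron and to 0 to 710 CPM in astrocyte libraries.

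To ask whether HoxC genes were read in cortical cells without Eed, their reads were first summed per library. In Eed+/+ astrocytes the sum was 1, 0, 0, 0 and 0 reads for replicates 1 to 5. In Eed-/- astrocytes it was 0, 85, 54, 0 and 149 reads. Eed+/+ neurons had 0 and 4 reads, and Eed-/- neurons 118, 169 and 209. All 3 Eed-/- neuron libraries thus held many HoxC reads, whereas the Eed-/- astrocyte libraries were split between 3 with reads and 2 without. As CPM, Eed-/- astrocytes had a sum of 0, 45.0, 134, 0 and 150 (65.7 ± 72.1, SD, n = 5), and Eed+/+ astrocytes averaged 0.0953 ± 0.213 (SD, n = 5). In Eed-/- neurons it was 93.9, 82.1 and 129 CPM (102 ± 24.5, SD, n = 3), and in Eed+/+ neurons 0 and 11.6 CPM (5.82 ± 8.23, SD, n = 2). Pooled over libraries, HoxC made up 725 times more of the gene reads in Eed-/- than in Eed+/+ astrocytes (exact 95% interval 129 to 28753, 288 against 1 read) and 53.5 times more in neurons (20.8 to 197, 496 against 4 reads). These intervals cover counting error alone and not the spread between libraries, and 149 of the 288 reads came from Eed-/- astrocyte replicate 5. Without Eed-/- astrocyte replicate 5 the former ratio was 471 (83.1 to 18721), and without Eed+/+ astrocyte replicate 1, the library with the 1 read, it was at least 189.9. Without Eed+/+ neuron replicate 1 the latter ratio was 8.64 (3.35 to 31.8). In these bulk samples more cells with HoxC RNA and more HoxC RNA per cell cannot be told apart.

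**Figure D1:**
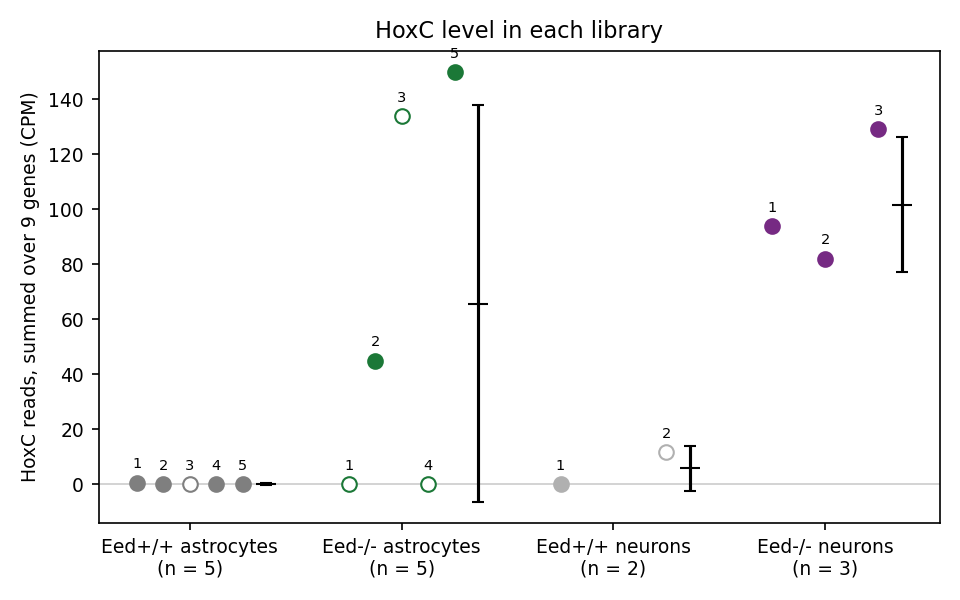
HoxC reads summed over the 9 genes (CPM, y axis) in each labeled library (points, numbered by replicate), by group. Open points lie outside the alignment limits, and dashes with bars give the mean ± SD. All 3 Eed-/- neuron libraries lie at 82.1 CPM or above, and Eed-/- astrocyte replicates 1 and 4 lie at 0.

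Both Eed-/- libraries without HoxC reads were shallow. Eed-/- astrocyte replicates 1 and 4 had 383061 and 211736 gene reads, where 0 reads allow up to 7.83 and 14.2 CPM for any gene, which is below the summed HoxC level of the other 3 Eed-/- astrocyte libraries. Replicate 3 was similarly shallow (403472 gene reads), and its 54 reads all belonged to Hoxc8. Markers of other cells also moved with these libraries. The 5 erythroid markers summed to 8829 and 11925 CPM in replicates 1 and 4, and the 8 microglia markers to 10364 CPM in replicate 1 and 1799 CPM in replicate 3, whereas in Eed+/+ astrocytes they summed to 0 to 5.24 and 0 to 266 CPM. The 6 meningeal fibroblast markers summed to 1725 CPM in replicate 3 and 411 CPM in replicate 4, against 5.22 to 88.7 CPM in all other astrocyte libraries. The part of these cells in the HoxC levels was not tested. In Eed-/- astrocyte replicates 2 and 5, both with HoxC reads and both within the alignment limits, all 8 microglia and all 5 erythroid markers were at 0 reads, and the neuron markers summed to 171 and 2121 CPM. Their oligodendrocyte lineage markers summed to 3510 and 2944 CPM, against 1205 to 4703 CPM in Eed+/+ astrocytes, and the part of such cells was not tested either. In the 3 Eed-/- neuron libraries the microglia markers summed to 105, 45.7 and 10.5 CPM, against 21.8 and 0 CPM in Eed+/+ neurons, and the neuron markers to 1301, 1956 and 1896 CPM, against 1223 and 710 CPM. In the neuron fit 7 of 8 microglia markers (median log2 fold change 3.24) and 8 of 10 neuron markers (median 2.14) were on the Eed-/- side and 0 of either list were called. Their part in the HoxC levels of neurons was not tested. The erythroid markers summed to 0 to 5.34 CPM in Eed-/- and to 29.1 and 0 CPM in Eed+/+ neurons.

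The members differed in how often they were read. In Eed-/- astrocyte replicates 1 to 5, 0, 5, 1, 0 and 8 of the 9 genes had a read, and in Eed-/- neurons 8, 7 and 9 did. In Eed+/+ cells only Hoxc9 (1 read in astrocyte replicate 1) and Hoxc8 (4 reads in neuron replicate 2) were seen, and the 7 other members had no read in any of the 7 Eed+/+ libraries.

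**Figure D2:**
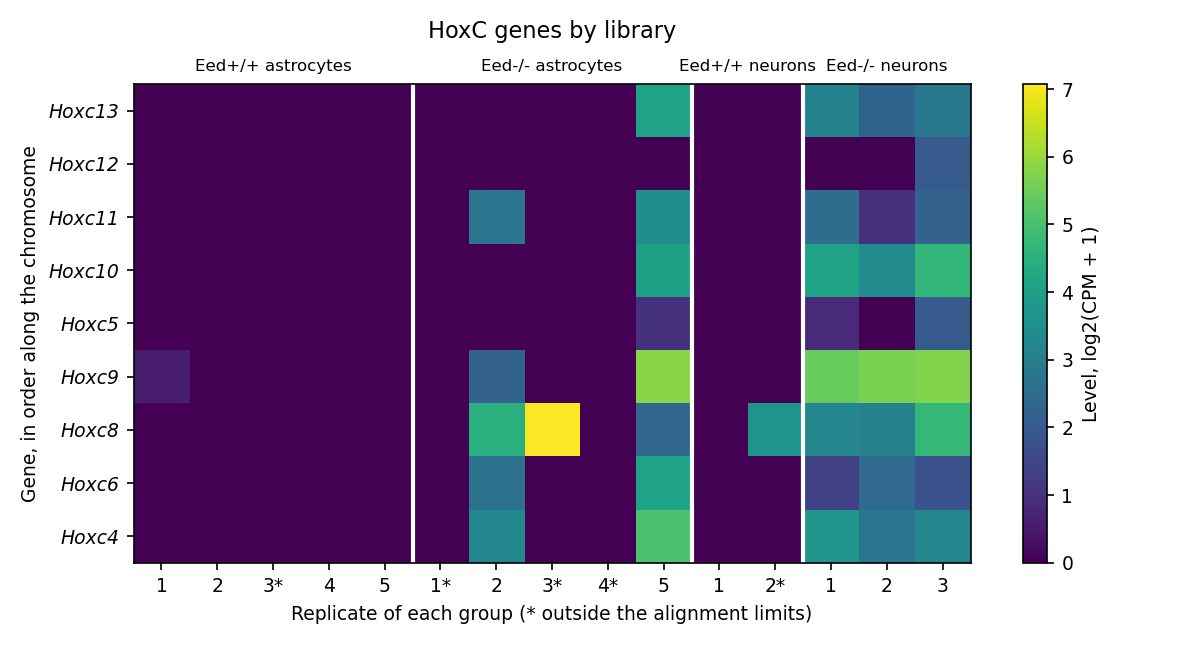
Level of each HoxC gene (rows, in chromosomal order from Hoxc13 to Hoxc4) in each labeled library (columns, by group and replicate), as log2(CPM + 1). The 3 Eed-/- neuron libraries share a similar pattern led by Hoxc9, whereas Eed-/- astrocyte replicate 3 holds Hoxc8 alone.

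Hoxc9, which gives motor neurons of the thoracic spinal cord their identity, had 53, 102 and 84 reads in Eed-/- neurons (42.2, 49.6 and 51.9 CPM) and 0 in both Eed+/+ neuron libraries. The groups did not overlap, and pooled reads were at least 34.4-fold higher in Eed-/- neurons, taking 3 reads over the group as the limit for 0. This bound, like every fold given as at least, takes the Eed-/- count as read, without its counting error. Leaving out Eed+/+ neuron replicate 1, the deeper of the pair, lowered that bound to 5.55. In Eed-/- astrocytes Hoxc9 had 0, 7, 0, 0 and 55 reads against 1, 0, 0, 0 and 0 in Eed+/+ astrocytes, a ratio of 156 (exact 95% interval 27.0 to 6267) that was 23.7 (3.04 to 1068) without Eed-/- replicate 5, 270 (46.5 to 10856) without Eed-/- replicate 2 and at least 40.9 without Eed+/+ replicate 1. Hoxc9 made up 44.9%, 60.4% and 40.2% of the HoxC reads of the Eed-/- neuron libraries (exact 95% intervals 35.8 to 54.3, 52.6 to 67.8 and 33.5 to 47.2).

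Hoxc8, which acts in motor neurons and ribs around the forelimb level, had 0, 41, 54, 0 and 4 reads in Eed-/- astrocytes (0, 21.7, 134, 0 and 4.02 CPM) and 0 in all Eed+/+ astrocytes, at least 83.1-fold higher over pooled reads and at least 42.2-fold without replicate 3. Of its 99 reads there 54 came from replicate 3, and without that library it had 45. The 3 libraries with Hoxc8 reads were far apart: Hoxc8 gave 48.2%, 100% and 2.69% of their HoxC reads (exact 95% intervals 37.3 to 59.3, 93.4 to 100 and 0.736 to 6.73). In Eed-/- neurons it had 11, 16 and 41 reads (8.75, 7.77 and 25.3 CPM) against 0 and 4 reads (0 and 11.6 CPM) in Eed+/+ neurons. Here the groups overlapped, and the ratio of 7.34 (exact 95% interval 2.74 to 27.7) was 1.18 (0.442 to 4.47) without Eed+/+ neuron replicate 1 and 4.34 (1.51 to 17.1) without Eed-/- neuron replicate 3, whereas without replicate 2, the library with 31.0% of reads aligned, Hoxc8 was at least 8.21-fold higher.

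Hoxc10, a regulator of motor neurons at hindlimb level, had 20, 20 and 40 reads in Eed-/- neurons (15.9, 9.72 and 24.7 CPM), at least 11.5-fold above Eed+/+ neurons. In Eed-/- astrocytes its 15 reads all came from replicate 5. Hoxc11, another gene of the hindlimb level, had 6, 2 and 6 reads in Eed-/- neurons and 0, 11, 0, 0 and 10 in Eed-/- astrocytes. Hoxc13, known for its role in hair and nails, had 10, 8 and 10 reads in Eed-/- neurons and 16 in Eed-/- astrocyte replicate 5 alone. Hoxc12 had 5 reads in Eed-/- neuron replicate 3 and none elsewhere.

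At the other end, Hoxc4, expressed from the neck region backward, had 15, 12 and 14 reads in Eed-/- neurons (11.9, 5.83 and 8.65 CPM, at least 5.90-fold higher) and 0, 16, 0, 0 and 32 in Eed-/- astrocytes (at least 40.3-fold higher). Hoxc6, which acts in motor neurons that supply the forelimb, had 2, 9 and 4 reads in Eed-/- neurons and 0, 10, 0, 0 and 16 in Eed-/- astrocytes. Hoxc5, which acts with Hoxa5 in motor neurons of the diaphragm, was rarely read, with 1, 0 and 5 reads in Eed-/- neurons and 1 read in Eed-/- astrocyte replicate 5. For Hoxc5 and Hoxc12 these numbers are too low for a fold at the depth of the Eed+/+ libraries. The remaining bounds were at least 21.8-fold for Hoxc6, 12.6 for Hoxc10, 17.6 for Hoxc11 and 13.4 for Hoxc13 in astrocytes, and at least 2.16 for Hoxc6, 2.02 for Hoxc11 and 4.03 for Hoxc13 in neurons. In astrocytes the bounds of Hoxc10 and Hoxc13 rest on replicate 5 alone (24.5 and 26.2 without replicate 2), and without replicate 5 those of Hoxc4 and Hoxc6 were 18.1 and 11.3. In neurons the bounds rest on Eed+/+ replicate 1, without which that of Hoxc10 was 1.86 and those of Hoxc4, Hoxc6, Hoxc11 and Hoxc13 lay below 1 (0.952, 0.348, 0.325 and 0.65), so that no difference was detectable for these 4 genes at the depth of replicate 2 alone.

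Per kb of exon, the order of the members in Eed-/- neurons was Hoxc9 (19.7 ± 2.09 CPM per kb, SD, n = 3), Hoxc10 (9.63 ± 4.32), Hoxc8 (4.93 ± 3.48), Hoxc4 (3.43 ± 1.19), Hoxc13 (2.44 ± 0.83), Hoxc11 (1.56 ± 0.970), Hoxc6 (1.17 ± 0.590), Hoxc12 (1.00 ± 1.73) and Hoxc5 (0.443 ± 0.549). Hoxc9 lay above Hoxc10 without overlap (17.4 to 21.4 against 5.58 to 14.2 CPM per kb), whereas the ranges of all other neighbors in that order overlapped. Within libraries, Hoxc10 also lay above Hoxc8, Hoxc4 above Hoxc13 and Hoxc13 above Hoxc11 in 3 of 3. Hoxc9 and Hoxc10, which are neighbors, led in each library, whereas the place of Hoxc8 rested on replicate 3, since in replicate 1 both Hoxc4 (4.65) and Hoxc13 (3.23) lay above Hoxc8 (3.09). In Eed-/- astrocytes the order began with Hoxc8 (11.3 ± 20.4 CPM per kb, SD, n = 5), Hoxc9 (4.86 ± 10.0) and Hoxc4 (3.17 ± 5.43), and with the SD above the mean for each member that had a read, no neighbors differed beyond their spread.

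**Figure D3:**
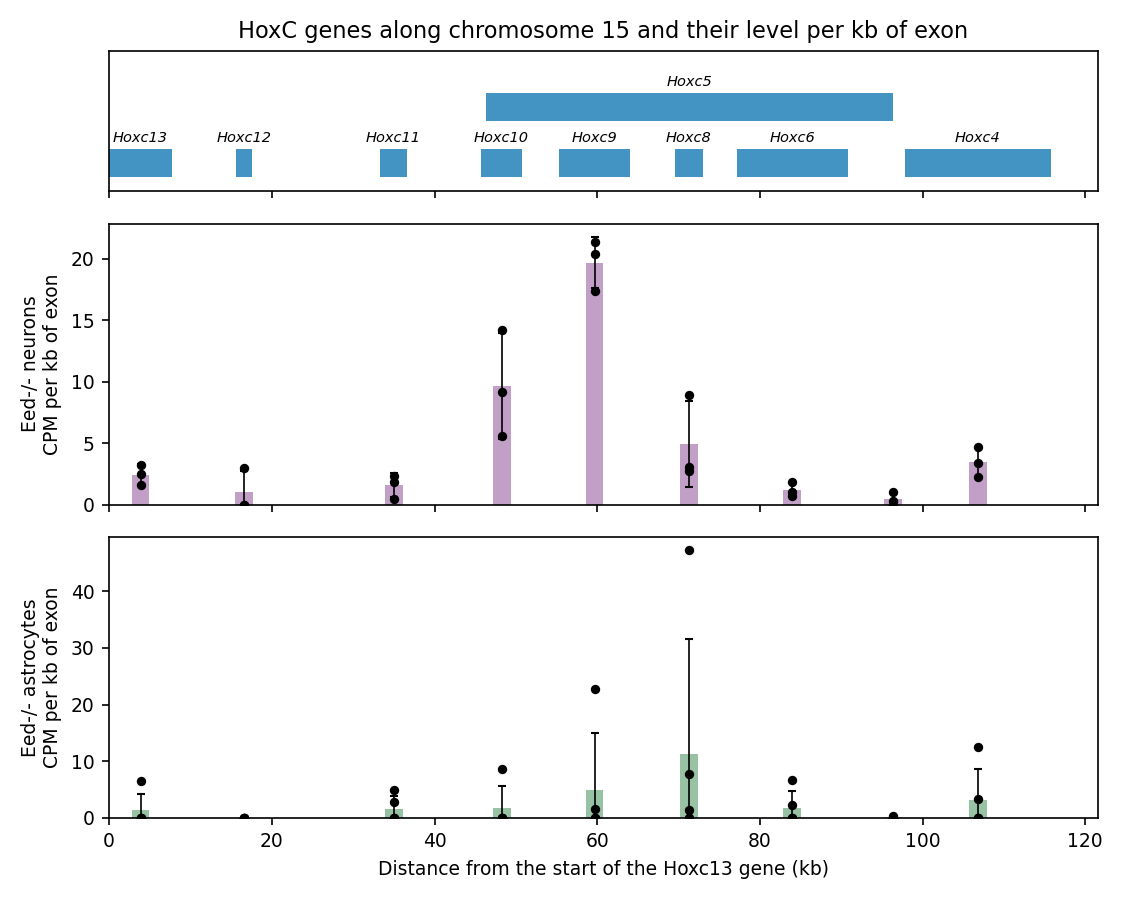
Top, HoxC genes drawn to scale by distance from the start of Hoxc13 (kb). Below, CPM per kb of exon in Eed-/- neurons and Eed-/- astrocytes, with bars for the mean, error bars for the SD (stopped at 0) and points for libraries, placed at the middle of each gene (Hoxc5 at its end). In neurons Hoxc9 stands at 19.7 and Hoxc10 at 9.63, and in astrocytes 1 library carries Hoxc8 to 47.3.

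The genotype difference was then tested within each cell type with edgeR's quasi-likelihood test, adjusted over all genes tested. In astrocytes 7 members passed the filter (a mean above 1 read over the libraries fitted), which their reads in Eed-/- cells alone decided, and 0 of them passed an adjusted p of 0.05, where 0.0629% of all 15895 genes tested did. Fitted log2 fold changes, whose direction the filter had thus set, ran from 5.03 ± 1.93 (SE, Hoxc10) to 8.54 ± 2.33 (Hoxc8), and adjusted p from 0.0895 (Hoxc8) to 0.248 (Hoxc9). All 7 had an unadjusted p under 0.05, as had 1850 of the 15895 genes, and DESeq2 called 1, Hoxc8 (adjusted p 0.0273), among 0.101% of all genes, and gave no adjusted p for the other 6. Without Eed-/- replicate 1 or 5, edgeR also called Hoxc8, among 71 and 118 genes in all. The fitted fold changes of genes without a read in 1 group depend on the prior count and are not bounds, and the median over all genes tested was -0.60. Exact permutation tests of the mean CPM did not separate the genotypes for any member in astrocytes (lowest two-sided p 0.167, for Hoxc8, adjusted p 1 over 24464 genes). With the Eed+/+ libraries at or near 0, this permutation p followed the number of Eed-/- libraries with reads. It was 0.167 with 3 such libraries (Hoxc8) and 0.444 with 2 (Hoxc4, Hoxc6, Hoxc9 and Hoxc11). No member had all Eed-/- above all Eed+/+ astrocyte libraries, as was the case for 0.0204% of genes with any read. Within the alignment limits (2 against 4 libraries) Hoxc4, Hoxc6, Hoxc8, Hoxc9 and Hoxc11 did, as did 4.25% of genes with any read (exact permutation p 0.133 for each, the smallest that 2 against 4 allow).

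In neurons 8 members passed the filter, 7 of them through reads in Eed-/- neurons alone and Hoxc8 mainly so. Of the 8, 0 passed an adjusted p of 0.05, and 0% of all 16342 genes tested did. Fitted log2 fold changes ranged from 1.73 ± 1.5 (SE, Hoxc8) to 9.09 ± 1.71 (Hoxc9), and adjusted p from 0.224 (Hoxc9) to 0.787 (Hoxc8). Unadjusted p was under 0.05 for 4 members (Hoxc4, Hoxc9, Hoxc10 and Hoxc13), and for 1167 of the 16342 genes. DESeq2 called 1, Hoxc9 (log2 fold change 7.64 ± 1.65 SE, adjusted p 0.00547), among 0.294% of all genes. On the libraries within the alignment limits edgeR also called Hoxc9, among 0.0181% of genes, where Eed+/+ neurons are a single library assumed to vary like the others. DESeq2 gave no adjusted p for Hoxc5, Hoxc6 and Hoxc11. Without Eed-/- neuron replicate 2, edgeR called Hoxc9 among 44 of 16050 genes. Without Eed+/+ neuron replicate 1, which leaves the poorly aligned replicate 2 as the lone Eed+/+ library, it called 2898 of 16184 genes, Hoxc9 among them. Hoxc4, Hoxc6, Hoxc9, Hoxc10, Hoxc11 and Hoxc13 were higher in every Eed-/- than in every Eed+/+ neuron library, a pattern that 9.89% of genes with any read had. The exact permutation p for each was 0.2 (two-sided), the smallest that 3 against 2 libraries allow.

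Over both cell types together (15 libraries, cell type as a term), 6 of the 7 members that passed the filter were called, where 2.11% of 16322 genes were. These members, too, passed the filter through their reads in Eed-/- cells, so the share of them called cannot be read against that of all genes. Hoxc9 (fitted log2 fold change 6.55 ± 1.64 SE, edgeR adjusted p 0.0163), Hoxc4 (6.54 ± 1.68, 0.0185), Hoxc6 (5.50 ± 1.54, 0.0297), Hoxc10 (5.78 ± 1.62, 0.0297), Hoxc13 (5.40 ± 1.54, 0.0317) and Hoxc11 (5.25 ± 1.5, 0.0321) were higher in Eed-/- cells. Hoxc8, with its reads in Eed+/+ neuron replicate 2, lay just outside (5.59 ± 1.72, 0.0522). These calls, like those of all genes, varied with the libraries fitted. Leaving out Eed+/+ astrocyte replicate 1, 2, 4 or 5 or Eed-/- astrocyte replicate 4 left 0 members called, among 15, 30, 13, 48 and 5 of all genes in place of 345. All 7 kept an unadjusted p under 0.05 there, which is no separate support, since they entered these fits through their reads in Eed-/- cells. Leaving out Eed+/+ astrocyte replicate 3 or Eed-/- astrocyte replicate 5 left 3, leaving out Eed+/+ neuron replicate 1 left 2 (of 184, 335 and 334 genes in all), and the 10 libraries within the limits left 1, Hoxc9, among 0.0301% of genes. DESeq2 called 2 over all libraries (Hoxc8 and Hoxc9), among 0.11% of genes, and gave no adjusted p for Hoxc6, Hoxc11 and Hoxc13. In the edgeR fit over all 15 libraries 3 of 8 microglia and 3 of 5 erythroid markers were called higher in Eed-/- cells. That fit took the libraries as independent, although whether an astrocyte and a neuron library came from the same animal is not given. With the replicate number as a block, 0 members and 0 of all genes were called.

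Whether the difference between genotypes itself differed between cell types was tested as an interaction. Of the 7 members tested 0 were called, against 0.0429% of genes, and 1 had an unadjusted p under 0.05 (Hoxc8, 7.24 ± 2.65 SE higher in astrocytes on the log2 scale, adjusted p 0.761). That value rests on the 4 Hoxc8 reads of Eed+/+ neuron replicate 2: within the alignment limits it was 0.14, and without that library 0 members had an unadjusted p under 0.05. DESeq2 gave no adjusted p for any of the 7 in this test. Nor did any member pass between Eed-/- astrocytes and Eed-/- neurons (0 of 7, against 0.0429% of genes, 0 at an unadjusted p under 0.05). DESeq2 gave an adjusted p for Hoxc8 and Hoxc9 alone (0.976 for each). There Hoxc9 was at -1.98 ± 1.68 (SE) and Hoxc10 at -2.37 ± 1.83, lower in astrocytes, and Hoxc8 at 1.36 ± 1.78. These errors leave room for differences of several-fold in either direction.

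The transcripts and genes around the HoxC genes were examined next. Hotair, a long non-coding RNA transcribed from the opposite strand between Hoxc12 and Hoxc11, had 0 reads in Eed+/+ cells, 5 in Eed-/- astrocytes and 7 in Eed-/- neurons. Mir615, within Hoxc5, had 2 reads in Eed+/+ astrocytes and 0 elsewhere, and the other 5 non-coding genes annotated in the cluster, Mir196a-2 among them, had 0. A library of polyadenylated RNA counts primary transcripts at best and does not measure mature microRNAs. Mir196a-2 lies between Hoxc10 and Hoxc9 and gives rise to miR-196a, a known repressor of Hox genes. Its sequence (RefSeq, GRCm38.p6, chr15:102973365-102973386, plus strand) is shown with its seed, bases 2 to 8, in capitals, because 1 of the 9 members carries matches to it.
mmu-miR-196a-5p: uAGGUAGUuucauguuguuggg
Hoxc8 site: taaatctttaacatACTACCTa
The seed match ACTACCT, in capitals in the Hoxc8 site and searched on the transcript strand of each annotated 3′ UTR, occurred 2 times in Hoxc8 and in no other HoxC gene. It occurred in 5.51% of the 20636 3′ UTRs. At the site shown, 12 of 22 bases could pair.

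Of the 5 nearest protein-coding genes on each side of the cluster, Gm28047 had no read in any of the 4 groups, 7 passed the filter in each fit and 0 were called in astrocytes, in neurons or over both. Cbx5, a heterochromatin protein gene 154692 bp beyond Hoxc4, had 392 ± 79.3 CPM (SD, n = 5) in Eed+/+ and 251 ± 196 in Eed-/- astrocytes, and 563 ± 139 (n = 2) and 516 ± 141 (n = 3) in neurons. Calcoco1, the nearest gene on the Hoxc13 side (198925 bp away), had 85.0 ± 102 and 34.6 ± 52.6 CPM in astrocytes and 42.2 ± 22.6 and 67.9 ± 29.5 in neurons, in the same order.

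Of the partners of Hox proteins, all 9 Pbx, Meis and Pknox genes passed the filter in each of the 3 fits and 0 were called. They were read in Eed+/+ cells already, at a summed 600 to 1285 CPM in astrocytes and 1229 and 1993 CPM in neurons, against 0 to 1004 and 646 to 1300 CPM in Eed-/- cells. Of 6 regulators of Hox genes, the histone modifiers Kmt2a, Kdm6a and Kdm6b were read in all 4 groups, Cdx4 in none, Cdx1 in both Eed-/- groups alone, and Cdx2 in Eed-/- neurons alone. By library, 3, 3 and 5 of the 6 had reads in Eed-/- neurons and 2, 3, 2, 0 and 3 in Eed-/- astrocytes. Of the regulators that passed the filter (4 in astrocytes, 3 in neurons) 0 were called, Cdx1 being at 5.37 ± 2.01 (SE, edgeR adjusted p 0.22) in astrocytes. All 6 PRC2 core genes were tested and 0 were called.

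HoxC was compared with the other 3 clusters in the same libraries. HoxC gave 288 of 566 Hox reads in Eed-/- astrocytes (50.9%, exact 95% interval 46.7 to 55.1) and 496 of 1326 in Eed-/- neurons (37.4%, 34.8 to 40.1). By library the share was 39.4%, 81.8% and 53.4% in Eed-/- astrocyte replicates 2, 3 and 5, and 30.6%, 34.0% and 47.2% in the 3 Eed-/- neuron libraries, a spread wider than counting error. Eed-/- astrocyte replicate 4 had 5 Hox reads, 0 of them of HoxC (exact 95% interval of the share 0 to 52.2%). Reads in every Eed-/- neuron library were found for 7 of 9 HoxC, 7 of 10 HoxB, 4 of 11 HoxA and 2 of 9 HoxD genes. Per kb of exon, Hoxc9 and Hoxc10 ranked 2 and 3 of the 39 Hox genes in Eed-/- neurons, after Hoxb13 (22.2 ± 8.90 CPM per kb, SD, n = 3), a gene at the tail end of HoxB whose range (12.3 to 29.5) held that of Hoxc9. In the fit over both cell types, 4 of 7 HoxB, 1 of 5 HoxA and 1 of 2 HoxD genes tested were called, beside the 6 of 7 HoxC genes and 2.11% of all genes, and the difference between clusters was not tested. Hox genes of all 4 clusters passed the filter mainly through reads in Eed-/- cells, and the 6 HoxC calls were lost without any 1 of the 5 libraries named above.

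**Figure D4:**
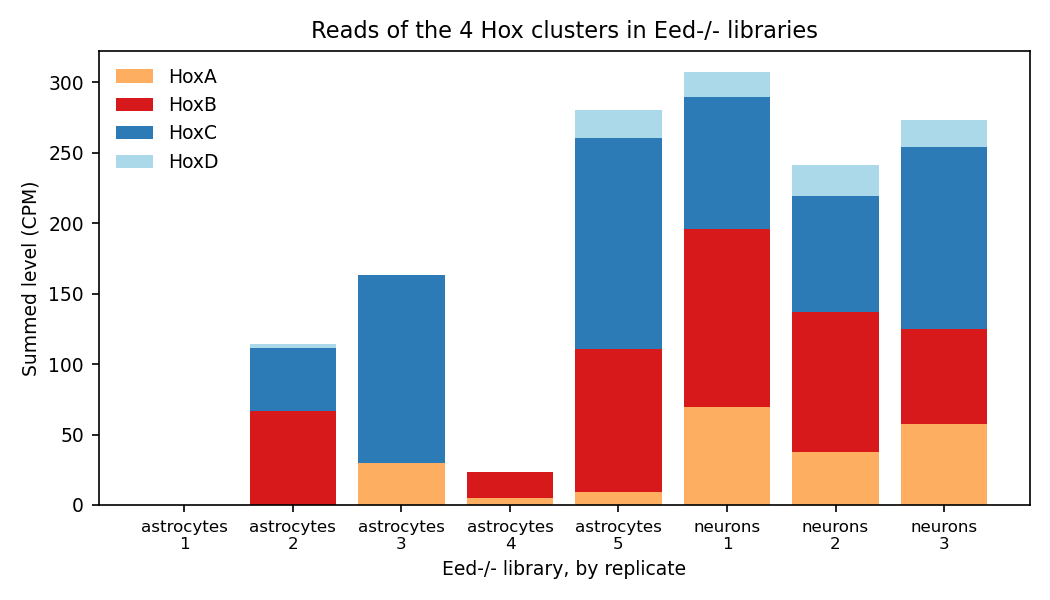
Reads of the HoxA, HoxB, HoxC and HoxD clusters (stacked, CPM) in each Eed-/- library. HoxC is the largest part in Eed-/- astrocyte replicates 3 and 5 and in neuron replicate 3, and Eed-/- astrocyte replicate 1 has no Hox read.

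Among 16301 other genes, those whose levels most resembled the summed HoxC level over the 15 labeled libraries were Npy, a neuropeptide gene (Pearson's r 0.893 of log2(CPM + 1), Spearman's rho 0.817), Cd59a, an inhibitor of complement (0.864 and 0.839), Htatip2 (0.848 and 0.806), Vax2os, antisense to the eye gene Vax2 (0.837 and 0.855), and Cpeb1, a regulator of mRNA translation (0.826 and 0.874). These values describe the libraries, which share genotype groups and differ in depth. In astrocytes Npy stood at 0.763 ± 1.71 CPM (SD, n = 5) with Eed and at 145 ± 215 (n = 5) without it. In neurons it stood at 1.68 ± 2.37 (n = 2) and 62.8 ± 10.5 (n = 3).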

How the data were processed

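RNA-seq was performed on sorted MADM-labeled cells after Smart-Seq v2 amplification. The authors aligned reads with STAR to mm10 (GRCm38) and deposited raw counts of reads per gene, not normalized. The sources used here do not name their annotation. The unstranded column was used, and 4 lines of totals per file stayed out of library sizes and tests. Ambiguous reads made up 0.934% to 5.66% of uniquely aligned reads per labeled library and reads outside genes 8.55% to 71.6%. Symbols and coordinates came from GENCODE mouse release 21 (53274 of 53379 identifiers matched, 105 did not).

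Groups came from the labels. The labels of 1 library name both cell types, and it entered no comparison. The study's methods remove 5 of these 16 samples, by principal component analysis or low correlation of replicates, without naming them, and all 15 with a group were kept here. The HoxC genes and all lists were chosen with earlier results of these data known. The text names all 9 members, the non-coding genes between them, the 5 nearest protein-coding genes per side, Hox partners and regulators, PRC2 core genes, and the 5 genes most similar to summed HoxC. Genes with a mean above 1 read were tested with edgeR 4.0.16 (R 4.3.3, TMM, robust quasi-likelihood, two-sided, Benjamini-Hochberg over all genes tested, threshold 0.05), and scripts were tested on simulated data. Alternatives were DESeq2 1.42.0, RLE scaling, filterByExpr, a mean above 10 or no filter, alignment limits, runs of library numbers, all 15 libraries together, the replicate number as a block, TMM or size-factor scaled levels, the sum of both stranded columns, and each library left out. DESeq2 on libraries within the limits was added after seeing the data. Adjusted p that DESeq2 gave as NA stayed NA. Intervals and limits for 0 (3 reads) cover counting error only, since amplified reads without molecular identifiers are not independent molecules. Folds given as at least set 3 reads for a count of 0 and leave out the counting error of the Eed-/- reads. Astrocyte replicates were individual animals per the study's methods.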

Additional observations from a re-analysis of the deposited data

Results flagged for a closer look

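In 6 cases 1 Eed-/- astrocyte library stood far above the other 4 (Dixon's ratio of its gap to the group's range above 0.71, the 95% critical value for 5 samples). Replicate 5 stood apart for Hoxc4 (32 reads, ratio 0.737), Hoxc5 (1 read, ratio 1), Hoxc9 (55 reads, ratio 0.933), Hoxc10 (15 reads, ratio 1) and Hoxc13 (16 reads, ratio 1), and replicate 3 for Hoxc8 (54 reads, ratio 0.838). In Eed+/+ astrocytes the single HoxC read, of Hoxc9 in replicate 1, gave a ratio of 1 for Hoxc9 and for the sum. Chance flags about 1 in 20 groups, and here 8 of 11 groups with any read held such a library. In groups where most libraries are at 0, a single library with reads is enough for a ratio of 1.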

How the results depend on the processing

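Fitted log2 fold changes of the members ranged over the alternatives from 2.19 to 9.36 in astrocytes, 0.35 to 9.34 in neurons and 2.75 to 8.44 over both cell types. Since nearly all their reads lie in Eed-/- cells, their common direction is no sign of stability. The number of members called varied, and the cause was not tested. In astrocytes it was 0 (10 of all 15895 genes), and 1, Hoxc8, with RLE scaling (300 genes) or DESeq2 (16 genes). It was 2 in the fit over all 15 libraries (Hoxc4 and Hoxc8, 328 of 16322 genes) and 0 to 1 with single libraries left out (0 to 118 genes). In neurons it was 0, and 1 (Hoxc9) with DESeq2 (48 of all 16342 genes) or no filter (127 of 23689 genes). With single Eed-/- neuron libraries left out it was 0 to 1 (0 to 44 genes). Within the limits, where Eed+/+ neurons are a single library, Hoxc9 was at a log2 fold change of 9.34. Over both cell types it was 6 (345 of all 16322 genes), 7 with RLE scaling (495 genes) and 2 with DESeq2 (18 genes). It was also 2 with filterByExpr (5 members tested, 41 of 13367 genes) or no filter (200 of 28042 genes). It was 1 with a mean above 10 (2 tested, 30 of 10943 genes) or within the limits (5 of 16615 genes), and 0 to 7 with single libraries left out (5 to 338 genes). DESeq2 within the limits, chosen after seeing the data, called 5 (Hoxc4, Hoxc6, Hoxc8, Hoxc9 and Hoxc10) among 60 of 16615 genes over both cell types. In astrocytes the same setting called 0 of 7 members, among 13 of 16187 genes. The interaction and the contrast of Eed-/- cell types gave 0 members throughout, where DESeq2 gave no adjusted p for 7 and 5 of the 7 members. In astrocytes no member passed filterByExpr or a mean above 10, so those 2 settings tested none. The summed difference ranged from 44.6 to 97.3 CPM in astrocytes (65.6 in the main setting) and from 81.6 to 106 in neurons (95.9). In astrocytes the SD of the Eed-/- libraries (72.1 CPM) was larger than the difference itself. All-gene calls ranged from 0 to 328 in astrocytes, 0 to 2898 in neurons and 0 to 495 over both, where DESeq2 called 11 genes higher and 7 lower against 320 and 25 with edgeR. In astrocytes RLE moved the median log2 change of all genes from -0.60 to -0.40.

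With the replicate number as a block, 0 members were called over both cell types, and 0 within each, and of all genes 0 were called over both, 0 in astrocytes and 1 in neurons. Libraries that share a number came from different groups with no stated pairing, and their deviations from the group means correlated between -0.302 and 0.14, so the number was taken as a name only. The 2 runs of library numbers gave 0 members each. In shallow libraries 0 reads allow up to 14.2 CPM, above the level of most members.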

Other observations

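The library with conflicting cell type labels, Eed-/- by its genotype label, held 221456 gene reads, with 17.7% of its reads uniquely aligned. It had 1 HoxC read, of Hoxc8 (4.52 CPM, under its limit for 0 reads of 13.5 CPM), beside 125 reads of 1 HoxA gene, 1 read of HoxB and 0 of HoxD.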
